A study of Mus musculus with 12 samples.

Results

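Mouse CD8 T cells labelled Ezh2 KO were followed from day 3 to day 5 after activation, and the 2 days were compared in 3 libraries each, 6 of the 12 libraries of the study. The libraries were chosen by their labels, as Ezh2 KO at day 5 and Ezh2 KO at day 3. The comparison covers the 10942 of 25655 listed genes with a value of at least 1 CPM in at least 3 of these 6 libraries. Values are in CPM, read counts scaled so that every library adds up to 1000000.

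All cells were naive CD8 T cells, sorted by surface markers that include low CD44, from the spleens of female C57BL/6 mice, whose age the labels do not give. For 2 days they received plate-bound anti-TCR-β at 3 µg/ml, anti-CD28 at 1 µg/ml and IL-2 at 10 ng/ml, after which they were kept on a fresh plate with IL-2 alone. The labels give the time in IL-2 as 1 or 5 days, the latter of which does not add up to the day 5 of the titles, so "day 5" follows the titles. How and in which part of the gene Ezh2 was deleted, and whether the 3 libraries of a group came from separate mice or cultures, is not stated in the labels. What the p-values weigh is therefore the scatter of libraries, which may be technical. The 6 WT libraries, 3 at each day and treated alike, serve here only to show where the change over time differed.

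Ezh2 is the main methyltransferase of the Polycomb complex PRC2 and puts the silencing mark H3K27me3 on developmental genes, on inhibitors of the cell cycle and on genes of alternative T cell fates. In the days after activation, CD8 T cells divide fast, burn glucose and load cytotoxic granules. They then leave the cycle, and part of them die while others keep features of memory precursors. In bulk RNA, fewer cells of a kind and less RNA per cell cannot be told apart, and every value below is a share of a library's reads.

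The KO libraries held 1545391 to 2011247 reads, so that 1 read was worth 0.497 to 0.647 CPM, and 11705 to 11973 genes had a read. The first principal component of the 6 libraries, with 54.3% of the variance, separated day 3 from day 5. One library stood apart within its group. The library labelled KO day 5 replicate 2 differed from the other two of its group with a chi-square of 5.44 and 5.27 per degree of freedom, while the other pairs of KO libraries had 1.66 to 2.46. Its mitochondrially encoded genes took 2.07% of reads, against 3.00% and 3.12% in the other two and 3.71% to 4.02% at day 3. Its Ezh2 value was also closer to day 3. Ezh2 (chr6:47530139-47595341, minus strand, GRCm38) was at 377, 334 and 311 CPM at day 3 and at 158, 283 and 161 CPM at day 5. WT cells had 357, 374 and 409 CPM at day 3 and 306, 319 and 316 CPM at day 5. The libraries read tags near the 3′ ends of transcripts, so a deletion elsewhere in the gene need not lower this value, and the KO and WT values overlapped at day 3. In KO cells Ezh2 fell by 0.81 ± 0.15 on the log2 scale (SE, limma adjusted p = 1.5e-04), and by 1.08 without the library that stood apart. CD8 T cell markers were present throughout, with 9 of 9 tested, 7 higher and none lower at day 5, and a summed level of 2882 to 3329 CPM at day 3 and 3690 to 4754 CPM at day 5. Of the B cell markers, Ms4a1, Cd22, Blnk, Fcer2a and Pax5 had no read in KO libraries, 3 of 13 could be tested and none passed (summed level 9.45 to 17.3 CPM, then 5.82 to 10.7 CPM). The 2 tested stromal markers, Thy1 and Pecam1, did not pass with all libraries, and Thy1 is also one of the CD8 T cell markers. Of the 7 tested erythroid and platelet markers only Tfrc, the transferrin receptor that dividing T cells also carry, fell.

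Between day 3 and day 5, KO cells lost transcripts for DNA replication and mitosis and gained transcripts linked to quiescence, cell death, the T cell receptor complex and a family of granzymes. In the limma model on log2(CPM + 1), a scale that shrinks changes at low values, 1762 genes (16.1% of those tested) were higher and 2256 (20.6%) were lower at day 5, with a Benjamini-Hochberg adjusted p below 0.05. In all, 4018 genes (36.7%) passed, and the median change of all genes was -0.04. The counts of list members below are to be read against these shares of all genes. Changes of at least 2-fold were found for 625 genes that rose (5.71%) and 678 that fell (6.2%). The values of the 3 libraries of one day lay entirely above those of the other for 4884 genes (44.6%). Without the library that stood apart, 1750 genes were higher and 2206 lower, of which 1522 and 1974 were among the calls above.

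**Figure D1:**
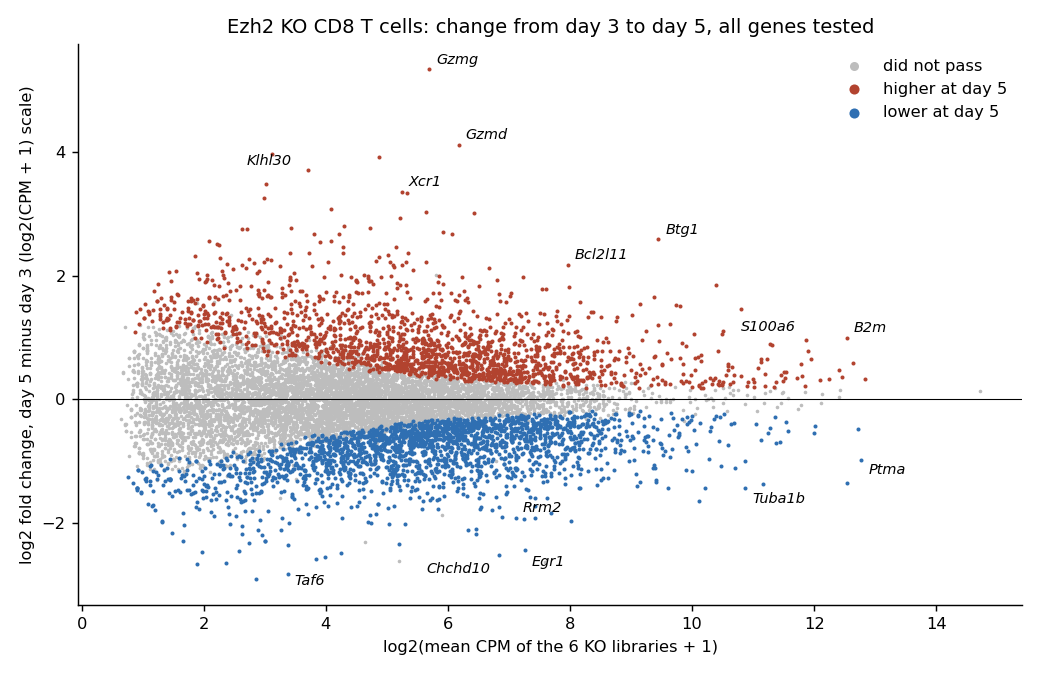
Each point is 1 of the 10942 genes, placed by log2(mean CPM of the 6 KO libraries + 1) on the x axis and by its log2 fold change from day 3 to day 5 on the y axis. Red points are the 1762 genes that were higher and blue points the 2256 that were lower at day 5, and the largest rise, that of Gzmg, was 5.34.

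The cell cycle list changed almost as a block. Of 61 genes of DNA replication and S phase, 60 fell and none rose, with a median log2 change of -1.27, against 20.6% of all genes that fell. Of 70 genes of G2 and mitosis, 67 fell and none rose, with a median of -1.07. The summed level of the replication list went from 8105 to 8839 CPM at day 3 to 3483 to 3631 CPM at day 5. For the mitosis list it went from 11970 to 12617 CPM to 5923 to 6311 CPM, so the libraries of the 2 days were far apart in both.

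Rrm2 encodes the small subunit of ribonucleotide reductase, which makes the deoxynucleotides for replication. It was at 223, 221 and 208 CPM at day 3 and at 62.8, 51.8 and 56.9 CPM at day 5, a fall of 1.91 ± 0.09 on the log2 scale (limma adjusted p = 5.5e-12). No library of one day came near the other day, and the same held for the next genes of this group. Mcm3, a subunit of the replicative helicase, had 403, 438 and 399 CPM and then 151, 155 and 151 CPM, and fell by 1.43. Uhrf1, which carries DNA methylation through replication, went from 242 ± 20.2 to 80.2 ± 1.28 CPM (SD, n = 3 each), and Dut, which removes dUTP, from 417 ± 8.86 to 154 ± 2.68 CPM (SD, n = 3 each). In both the day 5 libraries were close to each other and far below day 3.

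The genes of chromosome segregation moved in the same direction. Top2a, the topoisomerase that untangles sister chromatids, had 2164, 2334 and 2292 CPM at day 3 and 1078, 969 and 1109 CPM at day 5, and fell by 1.11 ± 0.07 (limma adjusted p = 6.5e-11). Mki67, the gene of the proliferation antigen Ki-67, had 930, 913 and 846 CPM and then 383, 439 and 424 CPM, and fell by 1.11 as well. Tpx2, a spindle assembly factor, fell by 1.19, and Sgo2a, a protector of centromeric cohesion, by 1.40. Tuba1b, an α-tubulin gene among those with the largest losses in CPM, went from 2848, 2787 and 2536 CPM to 1035, 956 and 1027 CPM and fell by 1.44. Cdc25b, a phosphatase that opens mitosis, was one of the 3 members that did not pass, with 69.1, 61.7 and 62.9 CPM and then 73.8, 79.6 and 73.9 CPM.

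Upstream of these lists, 14 of 23 genes for G1 cyclins, their kinases, Rb and E2F proteins fell and 2 rose. E2f8 and E2f7, repressive E2F members that peak in S phase, fell by 1.63 and 1.57, and Mybl2, which with the MuvB complex switches on mitotic genes, by 1.49. Ccnd3, the D-type cyclin gene of lymphocytes, fell by 0.57. The 2 that rose were Ccnd2, with 2924, 3076 and 3289 CPM and then 3908, 4500 and 3701 CPM, and Cdk6, whose product binds D-type cyclins, with an increase of 0.28.

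The 2 cell cycle lists were set beside the promoters that RefSeq gives for mouse (GRCm38.p6), to see which letters they share in the 250 bases before the start. E2F elements were searched as TTTCCCGC, TTTGGCGC, TTTCGCGC and TTTGCCGC. The CHR, a motif common upstream of mitotic genes, was searched as TTTGAA and TTCGAA, and the CCAAT box as CCAAT, all on both strands. An E2F element was found in 12 of 55 promoters of the replication list (21.8%), in 3.45% of promoters of all genes tested and in 1.86% of all 32851 promoters. A CHR was found in 25 of 62 promoters of the mitosis list (40.3%), in 12.5% of those of all genes tested and in 17.1% of all. CCAAT stood in 60% and 69.4% of the 2 lists and in 33.9% of all promoters. Promoters were found for 47 of the 61 and 59 of the 70 genes. Among genes that fell at least 2-fold, 7.79% of promoters held an E2F element, and among those that rose at least 2-fold, 1.29%. These matches describe letters and not bound sites. Shown are the bases before the start of the 2 genes with the largest fall among those with an E2F element in the replication list (Cdc6, which loads the helicase, and Hells, a chromatin remodeller) and with a CHR in the mitosis list (Cdk1, the mitotic kinase, and Cdc20, an activator of the anaphase-promoting complex). The capitals mark the E2F element in the first 2, which in Cdc6 reads on the other strand, and the CHR in the last 2.
Cdc6 (chr11:98907993-98908142, plus strand, log2 change -1.62): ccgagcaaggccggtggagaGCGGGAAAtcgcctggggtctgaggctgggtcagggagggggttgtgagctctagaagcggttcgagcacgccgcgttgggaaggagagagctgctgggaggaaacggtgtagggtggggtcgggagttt
Hells (chr19:38930908-38930989, plus strand, log2 change -1.59): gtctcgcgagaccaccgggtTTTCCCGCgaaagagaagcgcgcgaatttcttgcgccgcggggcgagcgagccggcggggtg
Cdk1 (chr10:69352913-69353003, minus strand, log2 change -1.72): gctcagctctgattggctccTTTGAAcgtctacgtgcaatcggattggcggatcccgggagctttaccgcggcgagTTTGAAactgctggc
Cdc20 (chr4:118437344-118437381, minus strand, log2 change -1.32): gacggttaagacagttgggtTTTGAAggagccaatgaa
The element lies 138 bases before the start in Cdc6 and 62 bases before it in Hells, and the Cdc6 stretch ends 8 bases before the start. The CHR lies 71 and 15 bases before the start in Cdk1 and 18 bases before it in Cdc20.

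**Figure D2:**
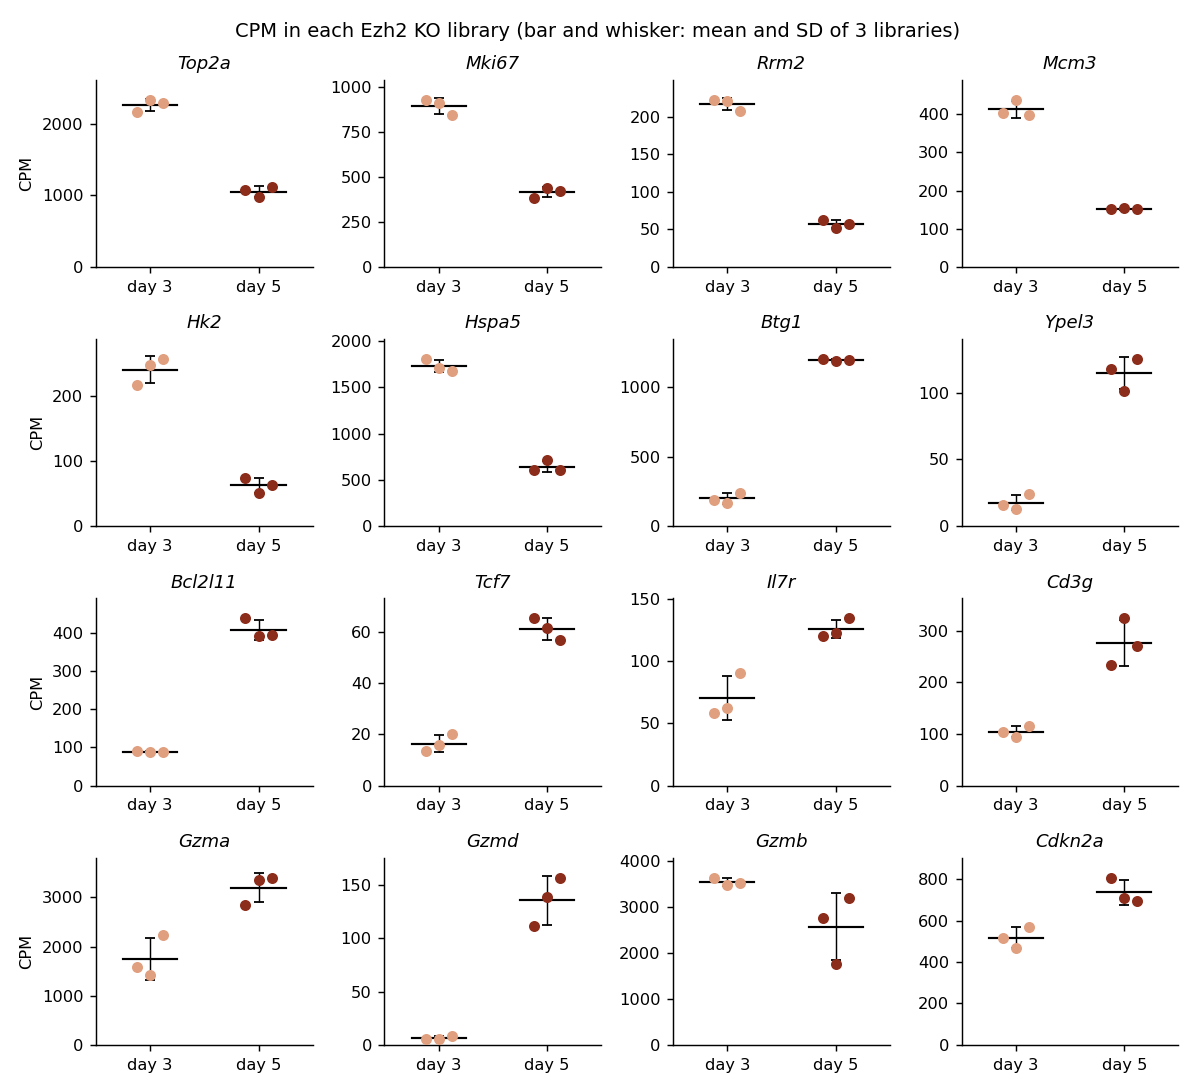
CPM of 16 genes in each KO library, 3 points per day in the order of replicates 1 to 3, with the mean as a line and the SD as whiskers; every y axis starts at 0. Mcm3 fell from about 413 to 152 CPM and Btg1 rose from 199 to 1194 CPM with no overlap, while Gzmb and Cdkn2a show smaller differences or wider spread.

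The inhibitors of cyclin-dependent kinases did not move as a group. Of 7 tested, Cdkn1b (p27) and Cdkn2b (p15) rose by 0.89 and 1.09 (the latter call ended with a pseudocount of 0.1), Cdkn2c (p18) and Cdkn2d (p19) fell by 0.67 and 0.47, and the fall of Cdkn2d was 0.30 without the library that stood apart. Cdkn2a, a well known PRC2 target, which encodes p16 and p19Arf, was already at 517, 469 and 567 CPM at day 3 and was at 806, 708 and 697 CPM at day 5. The days did not overlap, but the change of 0.51 ± 0.22 did not pass in the 12-library model (limma adjusted p = 0.075). WT libraries, which this model also holds, had 2.96, 6.65 and 1.70 CPM of Cdkn2a at day 3. With only the KO libraries the adjusted p was 0.0013, with edgeR on whole reads it was 7.1e-05, and without WT day 3 replicate 2 or replicate 3 it was 0.0039 and 0.018. Cdkn1a (p21) had 1117, 1317 and 1540 CPM and then 2036, 939 and 1751 CPM. It did not pass with all libraries (0.19, limma adjusted p = 0.45), and without the library that stood apart it was 0.52 higher (adjusted p = 1.8e-04). Cdkn1a was chosen after its values were seen, as were Tbx21, Il7r, Klf2, Prf1, Gzma, Gzmc, Gzmf, Zeb2, Pdcd1, Havcr2, Tox, Myc, Asns, Psat1, Trib3, Phf19 and Epop below.

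Genes linked to the resting state rose. Of 22 in the quiescence list, 14 rose and 1, Klf6, fell (by 0.24), with a median of 0.66, and the summed level went from 2419 to 2710 CPM at day 3 to 4557 to 5351 CPM at day 5. Btg1 (chr10:96617006-96622809, plus strand), an antiproliferative factor that helps keep T cells quiescent, had 187, 169 and 242 CPM at day 3 and 1200, 1186 and 1196 CPM at day 5. This is a 5.99-fold higher mean CPM and a log2 change of 2.59 ± 0.10 (limma adjusted p = 5.6e-13), the smallest adjusted p of the named genes. Ypel3, linked to growth arrest, went from 17.7 ± 5.74 to 115 ± 12.3 CPM (SD, n = 3 each). Slfn2, which is needed for T cell quiescence, rose by 1.82, and the transcription factor Klf13 by 0.95.

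Genes of the p53 response and of apoptosis rose in 14 of 34 cases and fell in 3. Bcl2l11, which encodes the death-promoting BH3-only protein Bim, had 91.5, 88.7 and 87.0 CPM at day 3 and 438, 392 and 394 CPM at day 5, a log2 change of 2.18 ± 0.11 (limma adjusted p = 7.2e-12). The BH3-only gene Bbc3 (Puma) went from 15.2 ± 2.21 to 69.0 ± 13.9 CPM (SD, n = 3 each). Both sets of libraries were well apart. Trp53inp1, a p53-induced gene of stress and autophagy, rose by 1.78, and Btg2, an antiproliferative p53 target, by 1.72. Among those that fell were the caspase gene Casp8 (by 0.25) and the phosphatase gene Dusp4 (by 1.40).

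The cytotoxic list was divided between granzymes that came up late and one that went down. Of 28 genes, 13 rose and 2 fell, with a median of 0.30. The 2 largest rises of all genes, those of Gzmg and Gzmd, were in the granzyme cluster of chromosome 14, whose members are near copies of each other, so that their reads may be divided in an unknown way. Gzmg (chr14:56156582-56159579, minus strand) had 3.48, 0 and 2.19 CPM at day 3 and 76.4, 93.7 and 128 CPM at day 5, a 52.6-fold higher mean and a log2 change of 5.34 ± 0.44 (limma adjusted p = 5.7e-09). Gzmd had 5.97, 5.95 and 8.75 CPM and then 111, 139 and 157 CPM, with a log2 change of 4.12 ± 0.34. Every day 5 library exceeded every day 3 library in both, and Gzme, Gzmc and Gzmf rose by 2.80, 2.71 and 2.57. The WT libraries had no read of Gzmg, Gzme or Gzmf at either day. Gzma, a serine protease of killer cells, had 1580, 1416 and 2236 CPM and then 2850, 3345 and 3396 CPM, and rose by 0.90.

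Gzmb, the main granzyme of killer cells, went the other way, with 3635, 3472 and 3514 CPM at day 3 and 2757, 1762 and 3197 CPM at day 5. It fell by 0.50 ± 0.13 (limma adjusted p = 0.004), and by 0.25 without the library that stood apart. The call ended with a robust prior (adjusted p = 0.062) or with moderation without trend (0.056). The pore-forming Prf1 had 382, 401 and 575 CPM and then 413, 533 and 595 CPM, which overlapped, and it did not pass (limma adjusted p = 0.37). Stx11, a syntaxin of granule release, fell by 0.53.

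Of the terminal effector list, 22 of 34 tested genes rose and 3 fell, with a median of 0.86, and of the memory precursor and stem-like list, 18 of 30 rose and 4 fell, with a median of 0.62. Of all genes 16.1% rose. Effector genes that rose include S100a4, a calcium-binding protein of motile cells (560, 510 and 666 CPM, then 2113, 1730 and 2440 CPM), and Ahnak, a large scaffold protein, with an increase of 1.52. Ccr2, an inflammatory chemokine receptor, rose by 1.33, Ly6c2 by 1.21 and Id2, which favours effector cells, by 0.65. The transcription factor gene Prdm1 (Blimp-1), which drives terminal effector cells, fell instead, with 92.5, 107 and 133 CPM at day 3 and 44.0, 26.5 and 44.2 CPM at day 5 (by 1.53 ± 0.20, limma adjusted p = 3.0e-06). Tbx21 (T-bet) had 22.9, 22.7 and 22.4 CPM and then 26.5, 19.7 and 25.3 CPM and did not pass, nor did Zeb2. Klrg1, the surface marker of short-lived effector cells, had too few reads to be tested.

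On the memory side, Tcf7, the gene of the stem-like factor TCF-1, had 13.4, 15.7 and 20.2 CPM at day 3 and 65.4, 61.7 and 56.9 CPM at day 5. It rose by 1.85 ± 0.18 (limma adjusted p = 7.4e-08), with no overlap between the days. Bach2, which restrains effector genes, rose by 1.39, Eomes by 1.23 and Bcl6, a repressor that antagonises Prdm1, by 2.76 from 0 to 1.64 CPM at day 3 to 6.47 to 14.5 CPM at day 5. Il7r, the IL-7 receptor of long-lived cells, had 58.2, 62.7 and 90.8 CPM and then 120, 123 and 135 CPM, and rose by 0.85. Klf2, a factor of T cell quiescence and homing, rose by 0.61. The 4 that fell were Id3, with 32.8, 27.6 and 27.4 CPM and then 8.41, 4.93 and 8.21 CPM, the lymph node homing receptor gene Ccr7 (by 1.25), Dapl1 (by 1.11) and Myb (by 0.98).

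Most partners of the antigen receptor rose, while the genes of the receptor itself carry no information here. In the T cell receptor list 16 of 22 genes rose and none fell, with a median of 0.53. Cd3g, a chain of the CD3 complex, had 104, 94.6 and 115 CPM at day 3 and 234, 324 and 270 CPM at day 5, and rose by 1.38 ± 0.11 (limma adjusted p = 3.3e-09). Cd3d rose by 1.11, Cd3e by 1.28 and the kinase gene Fyn by 0.96. Thy1 had 1087, 1055 and 1249 CPM and then 757, 1299 and 887 CPM. It did not pass (limma adjusted p = 0.14), and it fell by 0.46 without the library that stood apart (adjusted p = 1.5e-05).

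Natural killer (NK) receptors rose in 8 of 14 tested cases and fell in none. Klrd1 (CD94) rose by 1.32, its partner Klrc1 (NKG2A) by 1.11, and Hcst (DAP10), the adaptor of NKG2D, by 1.70. Klrb1c (NK1.1) had 0, 0.541 and 1.09 CPM at day 3 and 15.5, 14.2 and 10.1 CPM at day 5. Of the NK cell markers, Ncr1, Klra4 and Klra8 had no read in KO libraries. Of 7 tested, 2 rose (Klrb1c and Eomes), and the summed level was 139 to 159 CPM and then 286 to 348 CPM. Of the markers of γδ, MAIT and NKT cells, Klrb1c alone could be tested, and Blk and Il23r had no read.

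Inhibitory receptors had a median of 0.43, and their summed level was 510.5 to 521.8 CPM at day 3 and 718.9 to 765 CPM at day 5. The number of members that rose depended on the settings. Of 23 tested, 8 rose and 2 fell (Nr4a1 and Ikzf2), and 4 rose when KO day 3 replicate 1 or 2 or KO day 5 replicate 2 or 3 was left out, with a pseudocount of 0.1 or without a filter. Of all genes, 16.1% rose, so that 4 of 23 is near the background. Vsir (VISTA), a brake on T cell activation, had 111, 96.3 and 120 CPM and then 214, 227 and 208 CPM, and rose by 0.99 ± 0.11 (limma adjusted p = 3.4e-07). Cd38, an ectoenzyme found on exhausted cells, rose by 1.70 from 1.62 to 3.28 CPM to 7.40 to 13.9 CPM. Pdcd1 (PD-1), Havcr2 (TIM-3) and Tox did not pass. Costimulatory receptors fell in 7 of 18 cases (38.9%, against 20.6% of all genes), among them Tnfrsf4 (OX40, by 1.61). They rose in 3 (16.7%, near the 16.1% of all genes), which were Tnfrsf26 (by 1.52), Cd28 (by 0.64) and Cd2 (by 0.60).

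Of cytokine receptors and JAK-STAT genes, 15 of 39 rose and 3 fell. Il18rap, part of the IL-18 receptor, had 32.8, 31.9 and 37.2 CPM and then 114, 116 and 121 CPM, and Ifngr1, a chain of the interferon-γ receptor, rose by 1.35. The 3 that fell all belong to IL-2 signalling, the high-affinity receptor chain Il2ra (by 0.72), the shared chain Il2rb (by 0.36) and the feedback inhibitor Cish (by 0.36). Il2ra had 1294, 1380 and 1294 CPM at day 3 and 723, 963 and 734 CPM at day 5. Among 21 tested cytokines 9 rose and 3 fell. Ccl5, a chemokine stored by effector cells, rose by 1.38 and Spp1 (osteopontin) by 1.81, while Il10 (by 1.62), Il24 (by 1.72) and Lta (by 1.47) fell. Of 30 trafficking and adhesion genes 18 rose and 3 fell. Cxcr6, a receptor of tissue-resident cells, rose by 1.78, and among those that fell was Cxcr4 (by 1.06), a receptor for homing to marrow. Xcr1, a chemokine receptor best known from cross-presenting dendritic cells, had 3.98, 7.03 and 6.56 CPM and then 67.3, 68.5 and 68.2 CPM.

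Genes that mark myeloid and dendritic cells also rose, 10 of 15 tested, with a summed level of 821 to 946 CPM at day 3 and 1826 to 2272 CPM at day 5. Activated CD8 T cells share some of them, such as Ccr2 and Ly6c2, and the 5 genes of the class II antigen presentation list that rose (Cd74, H2-Aa, H2-Ab1, H2-Eb1 and H2-Oa) share 4 members with it. Cd74, the invariant chain, had 16.9, 19.5 and 7.66 CPM and then 53.7, 72.8 and 39.2 CPM. Of the other members of the myeloid list, Lyz2, Lyz1, Spi1, Cebpa, Fcgr1, Clec9a, Siglech and S100a9 had no read in KO libraries. With a pseudocount of 0.1, 6 of the myeloid genes, 3 of the class II genes and none of the mast cell genes described next rose. Mast cell and basophil genes were low, with Mcpt8 and Cpa3 higher of 3 tested, a summed level of 2.73 to 7.57 CPM and then 12.9 to 17.7 CPM, and no read of Cma1, Fcer1a, Mcpt4, Ms4a2, Tpsab1 or Tpsb2. The part of such cells in the results was not tested. Of 3 tested CD4 T cell markers Zbtb7b and Cd5 were higher and Tnfrsf4 lower, and of 21 genes of helper and regulatory lineages 7 rose and 6 fell, among them Batf3 (by 1.29) and Nfil3 (by 1.03).

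Immediate early and T cell receptor-induced genes did not share a direction, with 12 of 38 higher (31.6%) and 9 lower (23.7%). Of all genes 16.1% rose and 20.6% fell, so the share that fell is near the background. Egr1, an early response factor, had 193, 146 and 443 CPM at day 3 and 47.9, 47.5 and 32.9 CPM at day 5. The day 3 libraries spread widely, but none overlapped with day 5, and Egr1 fell by 2.43 ± 0.29 (limma adjusted p = 9.9e-07). Nfkbia, the feedback inhibitor of NF-κB, rose by 1.01, from 200, 193 and 175 CPM to 412, 359 and 376 CPM. Myc, the growth regulator, fell by 0.71.

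Genes of glucose use fell. Of 33 in the glycolysis and hypoxia list 23 fell and 5 rose, with a median of -0.61. Hk2, the inducible hexokinase, had 217, 247 and 256 CPM at day 3 and 73.8, 51.2 and 63.2 CPM at day 5, and fell by 1.93 ± 0.11 (limma adjusted p = 3.1e-11). The lactate exporter Slc16a3 went from 265, 312 and 309 CPM to 97.7, 99.9 and 92.9 CPM. Pfkl, a phosphofructokinase, fell by 1.59, and Egln3, an oxygen sensor that HIF induces, by 1.90. The 5 that rose were Aldoc (by 1.29), Pdk2 (by 1.96), Gpi1 (by 0.39), Bnip3l (by 0.27) and the mTOR inhibitor gene Ddit4 (by 0.58), which had 184, 222 and 209 CPM and then 404, 188 and 375 CPM. Without the library that stood apart Ddit4 rose by 0.93, and without replicate 1 of day 5 it was at 0.37. The call ended without KO day 5 replicate 1 or 3 or KO day 3 replicate 1, with moderation without trend and with a robust prior (limma adjusted p = 0.0754 to 0.124).

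Oxidative phosphorylation fell too, with 32 of 52 nuclear genes lower and Uqcrh alone higher, and a median of -0.45. Atp5g3, a ring subunit of ATP synthase, had 831, 822 and 747 CPM and then 476, 388 and 467 CPM. Chchd10, a mitochondrial cristae protein outside these lists, had 197, 189 and 190 CPM and then 39.5, 27.1 and 32.8 CPM, a fall of 2.52 ± 0.11 (limma adjusted p = 2.0e-12). Of the 13 genes on the mitochondrial genome, 11 fell, and 5 did with moderation without trend. mt-Nd1, a subunit of complex I, had 3752, 3381 and 3151 CPM and then 2181, 1881 and 2303 CPM. mt-Nd2 showed how far 1 library can decide a value, with 7458, 8213 and 8521 CPM at day 3 and 5141, 1236 and 4983 CPM at day 5. It fell by 1.35 with all libraries and by 0.67 without the one that stood apart, and the call ended with a robust prior (limma adjusted p = 0.057).

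Protein folding and turnover followed. In the heat shock and chaperone list 20 of 23 genes fell and none rose, with a median of -0.91, and the summed level went from 17479 to 19073 CPM to 9424 to 11384 CPM. Hspa5 (BiP), the main chaperone of the endoplasmic reticulum, had 1803, 1709 and 1674 CPM at day 3 and 602, 714 and 611 CPM at day 5, and fell by 1.43 ± 0.08 (limma adjusted p = 1.4e-11). Its partner Hsp90b1 (Grp94) fell by 1.65, the mitochondrial chaperonin gene Hspd1 by 1.40, and the cytosolic Hsp90aa1 by 1.37. Of 36 proteasome genes 27 fell, among them Psmc3, an ATPase of the regulatory particle (392, 354 and 366 CPM, then 208, 168 and 203 CPM). The activator subunit Psme1 alone rose, by 0.28. Lysosomal genes went up instead, with 13 of 33 higher and Atp6v1h alone lower. Npc2, which moves cholesterol out of lysosomes, had 288, 304 and 375 CPM and then 1064, 948 and 1015 CPM, and the protease gene Ctsa rose by 1.87.

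The machinery that builds ribosomes and the ribosomal proteins themselves moved in opposite directions. Of 46 genes of ribosome biogenesis 29 fell and none rose, with a median of -0.48, and Fbl (fibrillarin), which methylates ribosomal RNA, had 305, 308 and 316 CPM and then 176, 176 and 150 CPM. Ncl (nucleolin) fell by 0.71. Of 73 cytosolic ribosomal protein genes 39 rose and 2, among them Rpl15, fell, with a median of only 0.20. Rpl32 had 1866, 1789 and 1936 CPM and then 2714, 3390 and 2752 CPM, and Eef1a1, the elongation factor, 5040, 4863 and 5301 CPM and then 7352, 8297 and 7278 CPM. The number of ribosomal protein genes that rose was 25 with moderation without trend and 33 to 47 under other scalings, where the number that fell was 1 to 7.

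Biosynthetic lists fell less. In the amino acid supply and ATF4 list 14 of 35 genes fell and 1, the transporter gene Slc38a2, rose. Phgdh, the first enzyme of serine synthesis, had 249, 234 and 207 CPM and then 122, 104 and 113 CPM, and fell by 1.02 ± 0.09 (limma adjusted p = 1.3e-08). Mthfd1, a folate enzyme, fell by 1.76 and Psat1, of the serine pathway, by 0.68. Asns and Trib3, targets of the stress factor ATF4, did not pass (0.19 and 0.40). In the cholesterol and fatty acid list 15 of 34 genes fell and 2 (Srebf2 and Mvd) rose. Fasn, the fatty acid synthase, fell by 0.89 and Cyp51, of sterol synthesis, by 0.55.

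Interferon-stimulated genes rose in 32 of 53 cases, with a median of 0.66, and Gbp5 alone fell. Ifi203 had 65.6, 49.2 and 65.1 CPM and then 247, 250 and 220 CPM, and rose by 1.99 ± 0.12 (limma adjusted p = 1.0e-10). Ifit3, an antiviral effector, had 2.49, 1.62 and 1.09 CPM and then 21.4, 19.1 and 12.6 CPM. Samhd1, which degrades deoxynucleotides, rose by 1.07. B2m, the light chain of class I molecules, had the largest gain in CPM of all genes, from 3990, 3955 and 3865 CPM to 7729, 8734 and 7215 CPM. In the list of S100, annexin and actin-binding genes 17 of 28 rose, with S100a6 at 2460, 2310 and 2813 CPM and then 5150, 4540 and 5067 CPM, and 2 fell, among them Tagln2 (by 0.24).

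**Figure D3:**
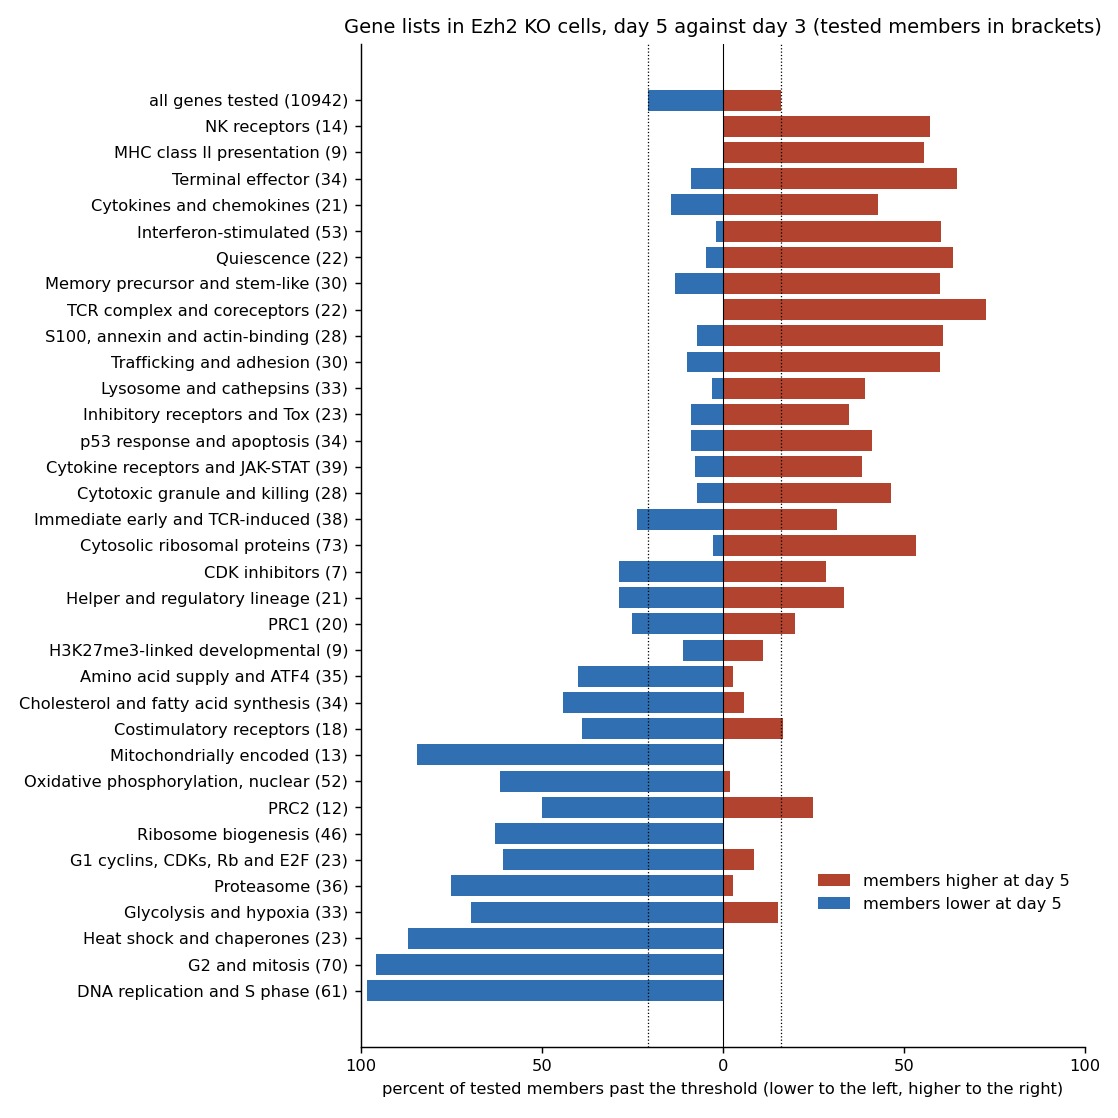
Percent of the tested members of each list that were higher (red, to the right) or lower (blue, to the left) at day 5 in KO cells, sorted by median log2 change, with the number tested in brackets. All genes tested are the top bar, and the dotted lines carry its 16.1% and 20.6% through the plot; the replication list stands at 98.4% lower and the T cell receptor list at 72.7% higher.

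Polycomb genes were divided. Of 12 tested PRC2 genes 6 fell and 3 rose, with a median of -0.48. Suz12, a core subunit, had 552, 589 and 547 CPM and then 367, 310 and 334 CPM, and fell by 0.74 ± 0.08 (limma adjusted p = 1.4e-07). The histone-binding subunits Rbbp7 and Rbbp4 fell by 1.05 and 0.79, Phf19 and Epop, accessory subunits, by 1.45 and 1.14. Those that rose were Ezh1, the alternative catalytic subunit, with 28.3, 36.2 and 32.3 CPM and then 60.8, 67.8 and 55.6 CPM, and the accessory subunits Jarid2 (by 0.68) and Phf1 (by 0.82). In PRC1, the complex that reads the mark, 4 of 20 genes rose (among them Phc2, Pcgf1 and Rnf2) and 5 fell (Cbx6, Kdm2b, Pcgf5, Phc3 and Rybp). These are 20% and 25%, near the 16.1% and 20.6% of all genes. The number that rose was 2 with only the KO libraries or without KO day 3 replicate 2 or 3. Developmental genes known to carry H3K27me3 were mostly silent at both days, with 9 of 52 tested and 28 without a read in KO libraries. Lhx2 was lower, and the only one higher was Cdkn2b, also counted with the kinase inhibitors above. Neither passed with a pseudocount of 0.1. The summed level of the list was 575.9 to 652 CPM at day 3 and 810.5 to 917.6 CPM at day 5. Most of this sum came from Cdkn2a, also a member, whose values are given with the kinase inhibitors above and whose change did not pass. The sum therefore does not describe the other members.

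Further genes were among the largest single changes. Ly6g, a surface protein best known from neutrophils, had 0.994, 4.87 and 2.74 CPM and then 38.8, 56.1 and 65.7 CPM. Klhl30 rose by 3.71, the peptide hormone gene Calca by 3.48, the carbonic anhydrase gene Car2 by 3.08, and Csf1, the growth factor of macrophages, by 2.75. The rise of Lat2, an adaptor, by 3.34 rested on 0, 5.95 and 36.7 CPM at day 3 and was 2.00 without replicate 1 of that day. Among the falls, Taf6, a subunit of the general transcription factor TFIID, had 12.4, 19.5 and 19.1 CPM and then 3.24, 1.23 and 0.632 CPM. Kbtbd4 had 6.46, 5.95 and 3.83 CPM and no read in the 3 libraries of day 5, where 3 reads over the group would be 0.632 CPM. Dnph1, a nucleotide hydrolase, fell by 2.58 and Cd24a by 2.35. Ptma (prothymosin α), linked to proliferation, had one of the largest losses in CPM, from 9197, 9539 and 8999 CPM to 4979, 4569 and 4557 CPM.

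Some of these calls ended when 1 library was left out. Those for Atp6v1h and Casp8 ended even without single WT libraries, where their log2 change stayed the same (limma adjusted p = 0.0501 to 0.0533). Leaving out 1 KO library at a time ended the calls for Atp6v1h, Bnip3l, Casp8, Cd5, Cpa3, Ddit4, H2-Aa, Ikzf2, Klf2, Klf6, Lhx2, Mvd, Pcgf1, Phc2, Phf1, Psme1, Rnf2, Rpl15, Rybp, Slc38a2, Srebf2, Stx11, Tagln2 and Zbtb7b at least once, with limma adjusted p from 0.0502 to 0.23 where they ended. With a pseudocount of 0.1 the calls for Cdkn2b, H2-Eb1, H2-Aa, Mcpt8, Cpa3, Pcgf1 and Lhx2 ended (limma adjusted p = 0.0533 to 0.293).

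Among the genes tested, more passed in KO than in WT cells, where 829 genes rose (7.58%) and 432 fell (3.95%). The genes tested were chosen by their values in KO libraries alone. Genes expressed mainly in WT cells may therefore be missing from these counts and from those of the difference below, while genes expressed only in KO cells were kept. Of the genes that rose in KO cells, 511 (29% of the KO list and 61.6% of the WT list) also rose in WT, and of those that fell, 333 (14.8% and 77.1%) also fell. Tested directly, the KO change was above the WT change for 465 genes (4.25%) and below it for 1018 (9.3%). This split moved with the scaling, since 31.4% of these genes had the higher change in KO, but 45.4% with median-of-ratios scaling and 43.3% with quantile normalization.

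Most members of the cell cycle lists differed. The KO change was below the WT change for 52 of 61 replication genes and for 64 of 70 mitosis genes, and above it for none. In WT cells the medians were -0.24 and 0.00. Top2a, which fell in KO cells, had 2824, 2804 and 2892 CPM in WT at day 3 and 2960, 2909 and 2931 CPM at day 5, and the difference between the changes was -1.15 (limma adjusted p = 7.9e-08). Btg1 did not pass in WT (0.09). Bcl2l11 rose by 1.03 in WT, from 43.7 ± 6.78 to 89.7 ± 4.48 CPM (SD, n = 3 each), and the KO change was 1.15 above it (adjusted p = 2.7e-05). The difference was above 0 for 8 of 22 quiescence genes, 10 of 34 p53 and apoptosis genes and 33 of 73 ribosomal protein genes, and below 0 for none of them.

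In other lists the median changes of the genotypes had opposite signs. In WT cells 18 of 35 amino acid genes and 21 of 34 cholesterol and fatty acid genes rose, with medians of 0.45 and 0.48. In KO cells 14 and 15 fell, not necessarily the same genes, with medians of -0.15 and -0.27. The KO change was below the WT change for 22 of the 35 and 24 of the 34. Cyp51 rose by 0.60 in WT and fell by 0.55 in KO, a difference of -1.14 (limma adjusted p = 2.7e-06). Il7r showed opposite changes as well, with 99.5, 115 and 117 CPM in WT at day 3 and 66.0, 74.7 and 57.6 CPM at day 5, a fall of 0.74. The difference from the KO change was 1.59 (adjusted p = 1.4e-05). Vsir fell by 0.43 in WT, with a difference of 1.42. Tcf7 and Bach2 did not pass in WT, with differences of 1.55 and 1.62, and Prdm1 had a difference of -1.82 (limma adjusted p = 1.5e-04).

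Other genes rose more in WT, from lower levels. Gzma went from 23.4 ± 6.66 to 233 ± 17.8 CPM (SD, n = 3 each) in WT, a log2 change of 3.29, and was 2.40 less in KO (limma adjusted p = 5.8e-07). At day 3 the KO libraries already lay above every WT library of either day. Cdkn2a had the same form, with 64.3, 77.5 and 71.8 CPM in WT at day 5, a change of 4.05 and a difference of -3.54. Ifitm1 went from 42.7, 49.9 and 34.0 CPM in WT to 685, 774 and 690 CPM, and in KO cells from 910, 859 and 1091 CPM to 2542, 2616 and 2687 CPM. For the terminal effector list, where 22 of 34 genes rose in each genotype, the KO change was above the WT change for 5 genes and below it for 9.

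**Figure D4:**
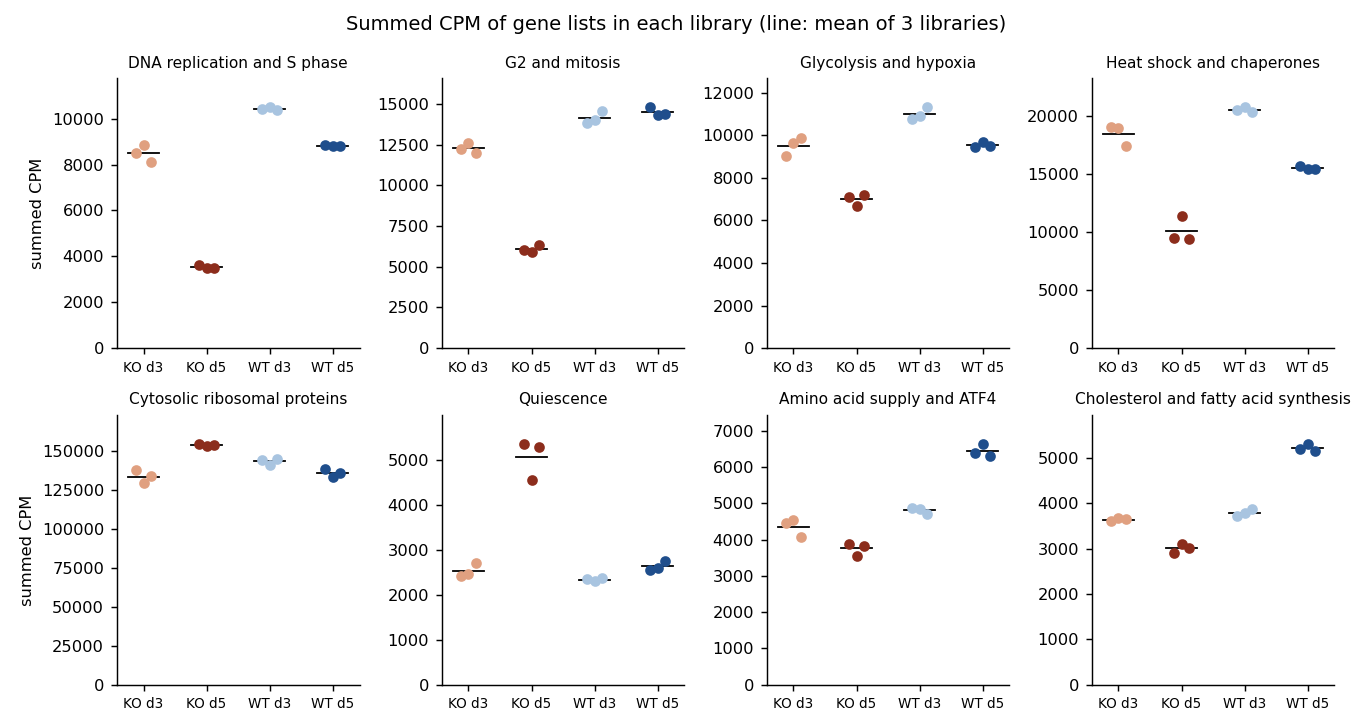
Summed CPM of 8 gene lists in each of the 12 libraries, by genotype and day, with the group mean as a line; every y axis starts at 0. The replication sum of KO cells at day 5 (3483 to 3631 CPM) lay below the 3 other groups, and the sum of the cholesterol and fatty acid list was 5146 to 5305 CPM in WT at day 5 against 2896 to 3099 CPM in KO.

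**Figure D5:**
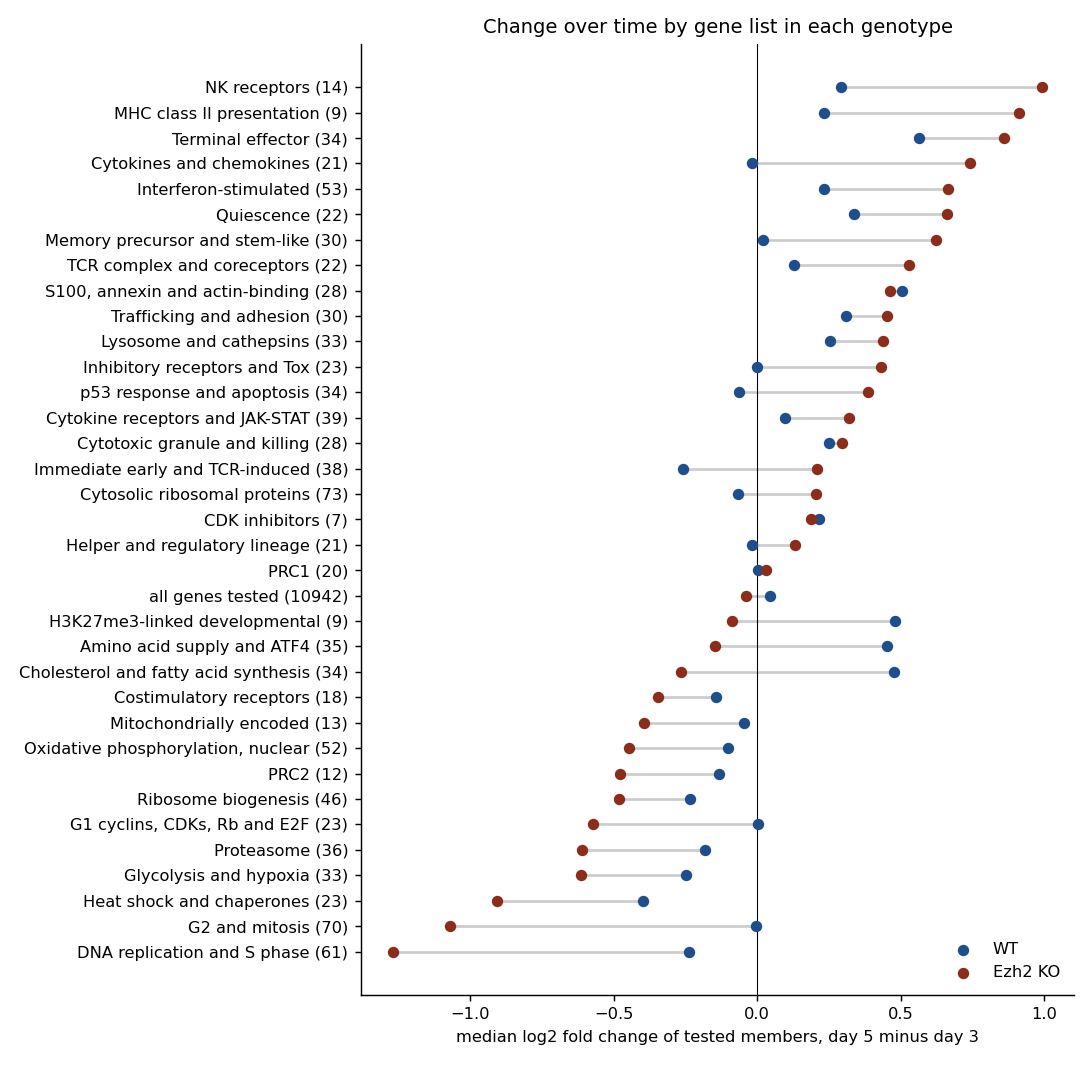
Median log2 change from day 3 to day 5 of the tested members of each list, in KO cells (red) and WT cells (blue), joined by a grey line. The mitosis list stands at -1.07 in KO and 0.00 in WT, and the amino acid list at -0.15 in KO and 0.45 in WT.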

How the data were processed

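The authors' deposited tables give 1 value per gene and library. They are called TPM in the file names. Since the total of a library is 1000000 throughout and 100% of values equal a whole number of reads (tolerance 0.001 read), the deposited values are taken as CPM. GRCm39 and mm10 both appear in the submitters' processing notes, with no role. Aligner, counting tool, annotation and strand setting: not given in the sources used here. QuantSeq 3′ libraries were made from 500 ng of RNA, per the labels' protocols. Of 25655 gene identifiers, 25600 were found in GENCODE M21 (GRCm38), which gave the gene coordinates.

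Genes with at least 1 CPM in at least 3 of 6 KO libraries were fitted over all 12 libraries as log2(CPM + 1) with limma 3.58.1 in R 4.3.3 (1 mean per group, trend, 20.8 total degrees of freedom, two-sided tests, Benjamini-Hochberg adjustment over 10942 genes, threshold 0.05). The interaction is the KO change minus the WT change. edgeR 4.0.16 was run on the recovered whole reads as an alternative and called 1953 genes higher and 2052 lower. Each library was left out in turn, and the replicate number was tried as a block. Further alternatives changed the pseudocount (0.1, 5), the filter (none, 5 CPM), the scaling (median-of-ratios, TMM, quantile), the moderation (without trend, robust prior) and the libraries fitted (KO alone). The fit was tested on simulated data with equal scatter in all libraries, so that test did not cover a library that stands apart. Immunoglobulin and T cell receptor genes are at 0 throughout and carry no information.

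The members, lists, tests and alternatives were chosen with earlier results of these data known. Named genes are Ezh2, the 15 largest rises and falls with a mean of at least 5 CPM and no overlap of libraries, the 8 largest rises and falls in CPM, for every list 4 members by lowest adjusted p and the lowest in each direction, members of counts of 5 or fewer, and the 6 largest interactions in each direction among genes that also passed in KO cells with 5 CPM or more on average in the higher KO group. Predicted gene models were left out of the largest rises, falls and interactions. Some are not reported here, and some genes outside this rule were chosen after their values were seen. The floor of 3 reads covers counting error only. Promoters came from RefSeq (GRCm38.p6).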

Additional observations from a re-analysis of the deposited data

Results flagged for a closer look

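The change from day 3 to day 5 differed between the genotypes, by the test of the difference in the limma model, for 12 genes taken as the 6 largest differences in each direction among genes that also passed in KO cells, had 5 CPM or more on average in the higher KO group and are not predicted models. Genes that did not pass in KO cells, such as Cdkn2a, are not among them. The KO change was above the WT change by 5.34 on the log2 scale for Gzmg, 3.75 for Gzmd, 3.49 for Ly6g, 3.48 for Calca, 2.80 for Gzme and 2.79 for Mmp13. All 6 had 0 to 2 reads in each WT group, so the fitted difference depends on the pseudocount. With edgeR on whole reads none of the 6 passed (adjusted p = 0.147 to 1), and with a pseudocount of 0.1 Gzmd, Ly6g and Gzme did not pass (adjusted p = 0.0764, 0.166 and 0.0705). The KO change was below the WT change by -2.61 for Ifitm1, -2.75 for Yy2, -2.62 for Shisa2, -2.62 for Glp1r, -2.59 for Kbtbd4 and -2.50 for Tuba8. Ifitm1 rose in both genotypes, by 1.46 in KO and 4.07 in WT. Tuba8 had 66 reads in KO at day 3 and 9 at day 5, and 13 and 18 in WT. The KO call of Glp1r ended with a pseudocount of 0.1 (limma adjusted p = 0.0827). That of Shisa2 ended without KO day 3 replicate 1 (0.104) or KO day 5 replicate 3 (0.103). Kbtbd4 had 31 and 0 reads in KO and 24 and 15 in WT, and its difference did not pass with a pseudocount of 5, without the filter, with moderation without trend, or without 1 of 5 single libraries (adjusted p = 0.0555 to 0.112).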

How the results depend on the processing

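The KO counts kept their size under the alternatives, with 1474 to 1999 genes higher and 1857 to 2271 lower. Leaving out each library gave 1474 to 1754 higher, 1857 to 2229 lower, and 565 to 639 and 600 to 728 at least 2-fold, and with a pseudocount of 5 the latter were 337 and 333. Moderation without trend gave 293 genes above and 635 below in the interaction, and 549 higher and 269 lower in WT. Leaving out each library gave 346 to 542 and 766 to 1233 in the interaction, and 554 to 1113 higher and 263 to 650 lower in WT. For genes lower in WT, 650 is the number with KO day 5 replicate 2 left out. Omitting WT day 3 replicates 1, 2 and 3 in turn gave 264, 263 and 282, and omitting WT day 5 replicates 1 and 3 gave 284 and 281. The cause was not tested.

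The replicate number was tried as a block. It gave 1758 genes higher and 2249 lower. Same-numbered libraries did not deviate together (correlations of -0.010 to 0.018), so no pairing by number was seen. With so few libraries, this cannot settle whether equal numbers stand for the same mouse or culture.

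In 8 genes that had not passed, the sign changed when 1 library was left out. Over all leave-outs the log2 change ran from -0.717 to 0.02617 for Ebf1 (highest without KO day 3 replicate 2), from -0.3197 to 0.05543 for Pecam1 (highest without KO day 5 replicate 2), from -0.0351 to 0.523 for Cdkn1a and from -0.02031 to 0.1842 for Tbx21 (both lowest without KO day 5 replicate 1). It ran from -0.1875 to 0.2358 for Pdcd1 (lowest without KO day 5 replicate 3, and -0.16 without KO day 3 replicate 2), and from -0.01699 to 0.5267 for Tox and -0.01193 to 0.8378 for Slc7a11, a gene chosen after its values were seen (both lowest without KO day 3 replicate 3). Gzmm ran from -0.03421 without KO day 5 replicate 1 to 0.6496. With 1 read worth 0.497 to 0.647 CPM, changes of genes below a few CPM were not well measured.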
